A study of Mus musculus with 9 samples.

Results

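The genes described here are 9 transcription factor genes of the mesenchyme of the head and of the membranes around the brain: Zic1, Zic2, Zic4, Foxd1, Foxc1, Alx4, Six2, Tbx15 and Tbx18. They were taken by symbol from the deposited table, in which all 9 were found among 23018 genes. The RNA came from lymphatic endothelial cells (LECs) that were sorted as CD45-CD31+PDPN+ cells. The groups were LECs of meninges, of diaphragm and of skin, with 3 libraries per tissue and 9 in all. All mice were C57BL/6 males of wild-type genotype, 10 weeks of age and without treatment. CD45 marks leukocytes, while CD31 (Pecam1) is carried by blood endothelium too, and podoplanin (Pdpn) is also made by fibroblasts and some epithelia. Whether replicates were different animals or parts of 1 pool is not stated in the labels, so a p-value reflects the spread among libraries and that spread may be technical.

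The meninges are layers of fibroblasts, vessels and lymphatics that form from mesenchyme of neural crest and mesodermal origin, the same tissue that gives rise to the bones of the skull. Zinc finger proteins of the ZIC family act in the dorsal neural tube and in meningeal mesenchyme, and FOXC1 is needed for the meninges to form over the forebrain. ALX4, SIX2, TBX15 and TBX18 are known for patterning the skull and other mesenchyme-derived tissues, and FOXD1 for stromal cells that give rise to pericytes in the kidney. FOXC1 and its close relative FOXC2 are also known to act in lymphatic endothelium itself.

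A promoter sequence was available for 6 of the 9 genes in the RefSeq table of build GRCm38.p6, each running from 250 bases before to 50 bases after a gene start. These 5 are shown because Zic1 and Zic4 are neighbours whose profiles over the libraries were alike, Foxd1 had no count outside meninges, Six2 holds a rare homeodomain motif, and Foxc1 was the member with counts in every library. Zic1 lies at chr9:91365719-91366018 on the minus strand, Zic4 at chr9:91368722-91369021 on the plus strand, Foxd1 at chr13:98353995-98354294 on the plus strand, Six2 at chr17:85688205-85688504 on the minus strand and Foxc1 at chr13:31806396-31806695 on the plus strand. Capitals mark the motifs searched for, on both strands.
Zic1: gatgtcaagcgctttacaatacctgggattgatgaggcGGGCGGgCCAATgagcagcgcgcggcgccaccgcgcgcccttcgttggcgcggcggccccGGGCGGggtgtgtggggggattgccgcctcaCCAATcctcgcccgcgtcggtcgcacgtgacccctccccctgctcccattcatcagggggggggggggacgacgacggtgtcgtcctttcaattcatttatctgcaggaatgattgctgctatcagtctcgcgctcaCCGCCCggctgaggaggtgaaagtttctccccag
Zic4: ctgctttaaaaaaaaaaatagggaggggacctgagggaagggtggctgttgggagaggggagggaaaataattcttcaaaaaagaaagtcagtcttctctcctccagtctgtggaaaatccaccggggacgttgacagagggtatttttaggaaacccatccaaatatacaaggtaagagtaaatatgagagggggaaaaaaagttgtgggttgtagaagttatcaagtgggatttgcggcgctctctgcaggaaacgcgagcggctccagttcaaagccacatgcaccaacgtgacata
Foxd1: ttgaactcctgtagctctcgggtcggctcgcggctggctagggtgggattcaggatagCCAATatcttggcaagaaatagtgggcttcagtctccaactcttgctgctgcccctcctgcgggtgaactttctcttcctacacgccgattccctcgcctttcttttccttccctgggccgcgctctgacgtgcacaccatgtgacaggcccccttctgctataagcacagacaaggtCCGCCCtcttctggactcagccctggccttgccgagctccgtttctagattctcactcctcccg
Six2: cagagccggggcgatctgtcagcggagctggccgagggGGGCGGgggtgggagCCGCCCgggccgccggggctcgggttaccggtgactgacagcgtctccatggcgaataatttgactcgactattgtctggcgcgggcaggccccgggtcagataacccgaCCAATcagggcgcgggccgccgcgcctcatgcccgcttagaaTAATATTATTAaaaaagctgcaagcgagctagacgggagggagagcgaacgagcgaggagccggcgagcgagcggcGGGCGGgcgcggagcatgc
Foxc1: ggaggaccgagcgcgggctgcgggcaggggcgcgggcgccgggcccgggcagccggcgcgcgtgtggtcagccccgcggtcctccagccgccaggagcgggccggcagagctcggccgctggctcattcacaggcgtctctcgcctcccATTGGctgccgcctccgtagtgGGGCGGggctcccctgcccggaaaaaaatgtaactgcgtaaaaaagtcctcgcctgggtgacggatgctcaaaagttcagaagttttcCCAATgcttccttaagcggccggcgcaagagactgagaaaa

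The capitals stand for the CCAAT box (CCAAT), the GC box (GGGCGG) and a palindromic homeodomain dimer site. The Zic1 window held 2 CCAAT boxes and 3 GC boxes, that of Foxc1 2 and 1, that of Foxd1 1 and 1, and that of Six2 1 and 3. The Tbx18 window, not printed, held 1 CCAAT box, and the Zic4 window held none of the motifs. A CCAAT box was present in 37.4% of all 32851 promoters of the same length and a GC box in 35.7%, so these matches are common. The homeodomain dimer site in the Six2 window occurred in 0.487% of promoters. A forkhead motif (TGTTTAC, in 3.65% of promoters), a T-box motif (AGGTGTGA, 1.28%), a ZIC motif (GGGTGGTC, 0.807%) and a TATA box (TATAAA, 13.6%) were searched for as well and were not found in the 6 windows. No motif shared letters with another in these windows. GC content was 65.3% for Zic1, 67.3% for Six2 and Foxc1, 57.7% for Foxd1 and 46% for Zic4, beside a median of 52.7% over all promoters.

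All 9 genes had counts in each of the 3 meningeal libraries, while the diaphragm libraries had counts of 3, 2 and 1 of them and the skin libraries of 1, 3 and 2. Total counts per library ran from 26075366 to 34592850. The number of genes with a count also differed, at 16412 to 17245 in meninges, 14396 to 15353 in diaphragm and 13241 to 15550 in skin. The sorted cells were checked against 18 lymphatic endothelial markers, which all had counts in each library and summed to 8483 to 19491 CPM (counts scaled to a common effective library size) in meninges, 18418 to 25179 in diaphragm and 24567 to 26553 in skin. Meninges replicate 2 had the lowest of these sums. Fibroblast markers, 21 genes, summed to 2911, 10647 and 10369 CPM in Meninges replicates 1, 2 and 3, against 3373 to 3703 in diaphragm and 2011 to 3677 in skin. The collagens Col1a1 and Col1a2 led this sum in Meninges replicates 2 and 3, and Thy1 led it in Meninges replicate 1, at 576 CPM. In each diaphragm and skin library Vim led, at 1291 to 1453 CPM in diaphragm and 1260 to 1686 CPM in skin. Bone and cartilage markers, 11 genes led in meninges by Runx2 and Alpl, summed to 184, 1010 and 697 CPM in meninges, against 3.94 to 42.5 in diaphragm and 0.387 to 121 in skin. Of the cartilage genes in that list, Acan had 0.188, 66.1 and 77.2 CPM in meninges, against at most 0.0358 in diaphragm and 0 to 24.6 in skin, Sox9 had 0.814, 11.4 and 18.7 CPM in meninges, against 0.287 to 40.3 in diaphragm and 0.0387 to 25.96 in skin, and Col2a1 had no count in meninges or diaphragm and 0 to 57.7 CPM in skin. Of the fibroblast list 20 to 21 genes had counts in each meningeal library, and of the bone and cartilage list 6 to 8. In bulk RNA, fewer cells of a type and less RNA per cell cannot be told apart, and the cells that carried the transcripts of the 9 genes were not identified here.

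**Figure D1:**
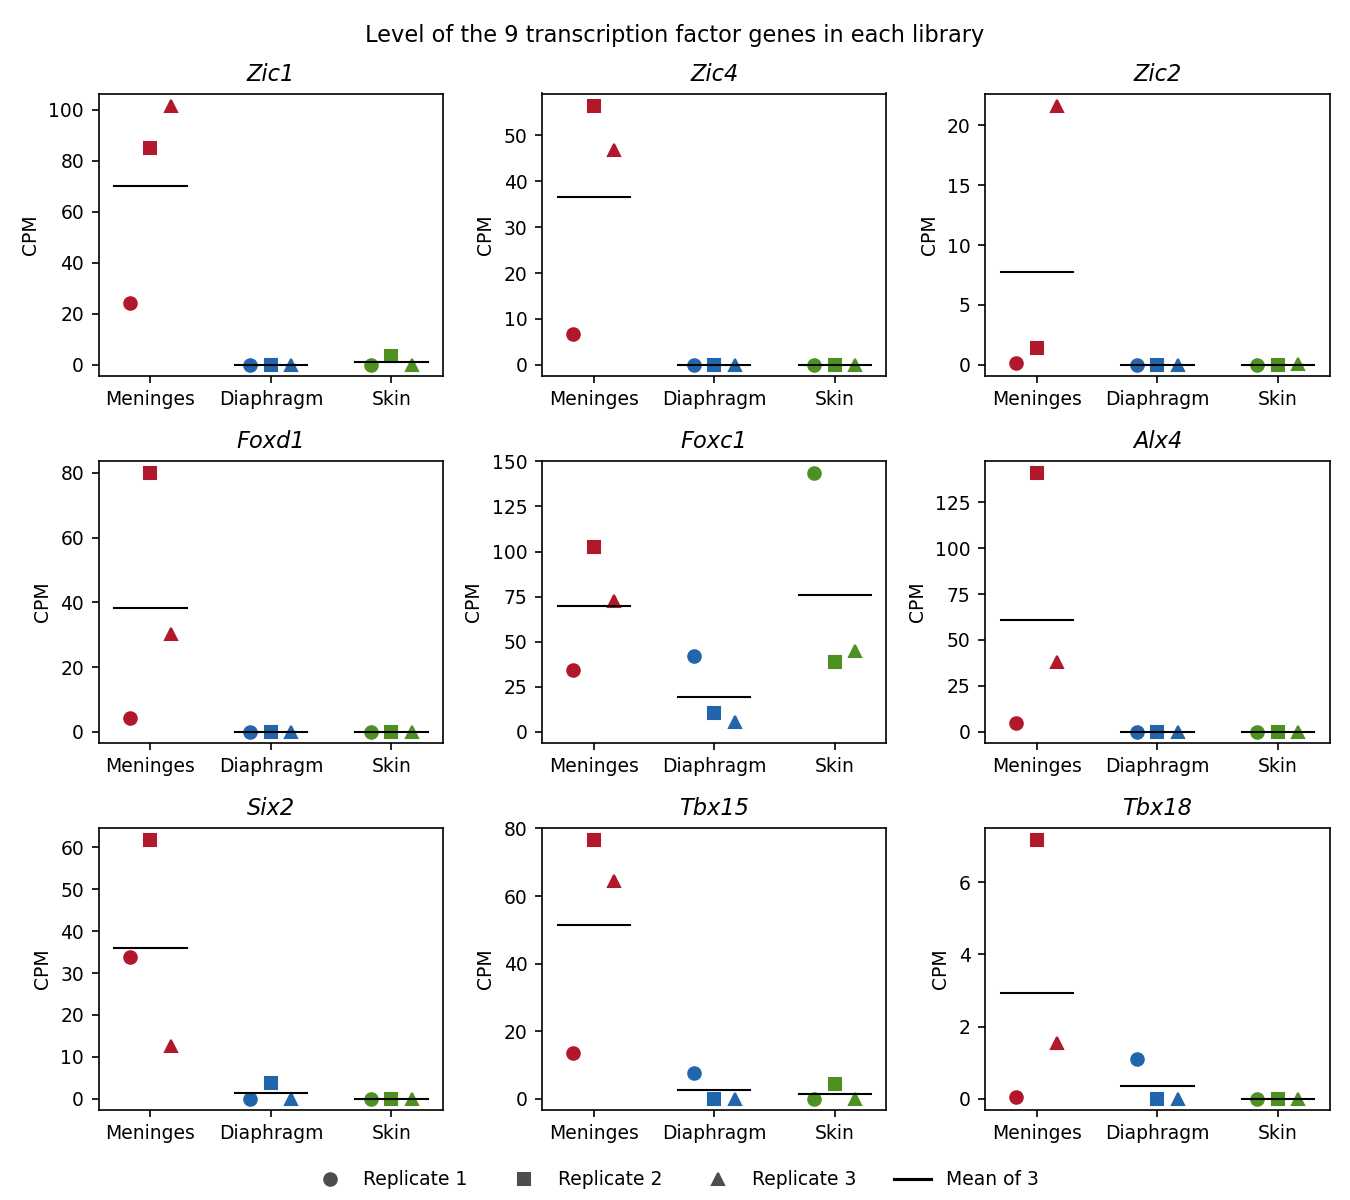
Level in CPM (vertical axis, linear, a separate scale for each gene) of the 9 genes in each library of meninges, diaphragm and skin; points are libraries, shapes replicate numbers and bars means of 3. Meningeal libraries stand above all others for 7 genes, among them Zic2, which was not tested. Foxc1 overlaps with both other tissues and Tbx18 with diaphragm. Of all genes tested, 10.4% had meningeal libraries above all of diaphragm and 12.9% above all of skin. The share above both was not computed.

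Among the ZIC genes, which encode zinc finger factors, Zic1 had 24.1, 84.8 and 101 CPM in Meninges replicates 1, 2 and 3, against 0 in each diaphragm library and 0, 3.45 and 0 CPM in skin. All 3 meningeal libraries were thus above the 6 others, and the lowest of them was replicate 1. Means were 70.0 ± 40.6 CPM in meninges and 1.15 ± 1.99 in skin (SD, n = 3 each). Against a floor of 3 counts over the 3 libraries of a tissue, Zic1 was at least 10.89 higher in meninges than in diaphragm on the log2 scale, with an edgeR adjusted p of 0.100. Against skin the log2 fold change was 5.92 (standard error 2.05, edgeR adjusted p = 0.224). Skin replicate 2, the single skin library with Zic1, had 85 counts of it, and without that library the edgeR adjusted p was 0.0135. That library also had the highest summed level of 12 keratinocyte and hair follicle markers, at 251 CPM, against 0.0387 and 73.4 in the other skin libraries; the part of these cells in the Zic1 counts was not tested.

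Zic4 had 6.70, 56.3 and 46.9 CPM in meninges and no count in any diaphragm or skin library. It was higher in meninges than in skin, by at least 9.79 on the log2 scale (edgeR adjusted p = 0.0451), and by at least 9.96 against diaphragm, where the test was not passed (edgeR adjusted p = 0.0921). Zic2 was lower and less even, with 4, 46 and 816 counts in Meninges replicates 1, 2 and 3 (0.125, 1.44 and 21.6 CPM), none in diaphragm and 1 in Skin replicate 3. The filter on low counts removed Zic2, so it has no test. Its meningeal mean of 7.71 ± 12.0 CPM (SD, n = 3) was at least 209-fold the diaphragm floor. From the counts summed over each tissue, 866 in meninges and 1 in skin, the ratio was 616, with a 95% interval of 110 to 24345 from counting error alone, and 816 of the 866 counts came from Meninges replicate 3. Zic1 and Zic4 overlap on opposite strands of chromosome 9 in the GENCODE vM21 annotation, and no source used here gives the strand setting of the counting, so their reads cannot be told apart where they overlap.

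Of the forkhead genes, Foxd1 had 4.32, 79.9 and 30.3 CPM in Meninges replicates 1, 2 and 3 and no count in diaphragm or skin. Its mean in meninges was 38.2 ± 38.4 CPM (SD, n = 3), so that the spread was as large as the mean. Foxd1 was higher in meninges than in skin, by at least 9.85 on the log2 scale (edgeR adjusted p = 0.0496). Against diaphragm the bound was 10.02 and the edgeR adjusted p 0.100.

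Foxc1 was the exception among the 9, with counts in every library. It stood at 34.3, 102 and 72.6 CPM in meninges, against 42.1, 10.5 and 5.41 in diaphragm and 144, 38.6 and 45.1 in skin. The meningeal libraries overlapped with both other tissues, and the highest value of all was that of Skin replicate 1, the library with the lowest fibroblast marker sum. Its mean level was 69.8 ± 34.2 CPM for meninges, 19.4 ± 19.9 for diaphragm and 75.7 ± 58.8 for skin (SD, n = 3 each). None of the 3 differences passed the edgeR test: the log2 fold change was 1.85 for meninges over diaphragm (standard error 0.85, adjusted p = 0.491), -0.12 for meninges over skin (standard error 0.83, adjusted p = 0.981) and -1.97 for diaphragm over skin (standard error 0.86, adjusted p = 0.398).

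The homeobox gene Alx4, a regulator of skull closure, had 147, 4503 and 1435 counts in Meninges replicates 1, 2 and 3, which is 4.60, 141 and 37.9 CPM, and none in diaphragm or skin. Replicate 2 had 30.6 times the level of replicate 1, and the mean was 61.1 ± 70.9 CPM (SD, n = 3). Alx4 was higher in meninges than in skin, by at least 10.52 on the log2 scale (edgeR adjusted p = 0.0275). Against diaphragm it was above the floor by at least 10.70, or 1659-fold, with an edgeR adjusted p of 0.0580. Its annotated locus overlaps Ext2 on the opposite strand.

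Six2, a homeobox gene known for maintaining nephron progenitor cells of the kidney, had 33.9, 61.6 and 12.6 CPM in meninges, against 0, 3.86 and 0 in diaphragm and 0 in each skin library. The meningeal libraries were all above the others, with replicate 3 the lowest of them. The log2 fold change of meninges over diaphragm was 4.80 (standard error 2.31, edgeR adjusted p = 0.533), and the bound against skin was 9.76 (edgeR adjusted p = 0.102).

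The T-box genes were unlike in level. Tbx15, which acts in skeletal and skin patterning, had 13.5, 76.5 and 64.5 CPM in meninges, against 7.67, 0 and 0 in diaphragm and 0, 4.26 and 0 in skin. All meningeal libraries were above the others, and the counts of the other tissues came from 1 library each, Diaphragm replicate 1 and Skin replicate 2. The log2 fold change was 4.33 over diaphragm (standard error 2.51, edgeR adjusted p = 0.656) and 5.17 over skin (standard error 2.61, edgeR adjusted p = 0.420). Tbx18, a gene also known from pericytes, had 0.0626, 7.16 and 1.53 CPM in meninges, 1.11, 0 and 0 in diaphragm and none in skin, and Meninges replicate 1, with 2 counts, lay below Diaphragm replicate 1, with 30. Its differences did not pass the edgeR test (adjusted p = 0.875 over diaphragm and 0.270 over skin). The loci of Tbx15 and Tbx18 are also overlapped by an annotated transcript on the other strand.

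To set levels between genes, CPM was divided by the joined length of all exons annotated for a gene in GENCODE vM21. That length ran from 2.12 kilobases for Six2 to 10.3 for Zic4. It is not from the build of the counts, and how far the order depends on it was not tested. The meningeal means in CPM per kilobase were 17.0 ± 11.6 for Six2, 13.7 ± 8.93 for Tbx15, 12.3 ± 7.14 for Zic1 and 11.9 ± 5.85 for Foxc1 (SD, n = 3 each). They were followed by Alx4 at 8.65 ± 10.0, Foxd1 at 7.54 ± 7.58, Zic4 at 3.54 ± 2.55, Zic2 at 2.68 ± 4.17 and Tbx18 at 0.618 ± 0.793 CPM per kilobase. The ranges of mean ± SD overlapped between all neighbours in this order. In skin, Foxc1 stood at 13.0 ± 10.1 CPM per kilobase and the next gene, Tbx15, at 0.379 ± 0.657.

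Of the 9 genes, 8 passed the filter on low counts, and a member could pass it through the meningeal libraries alone. The members and the other lists were chosen with earlier results of these data known. Counts and medians set beside all genes, here and in the comparisons below, thus describe the lists and do not test them. Against diaphragm, none of the 8 was called at an edgeR adjusted p under 0.05, where 0.169% of all 14831 genes tested were called higher and 0.175% lower in meninges. At an unadjusted p under 0.05 there were 5 of 8, beside 10.1% of all genes tested, and the DESeq2 Wald test and limma voom each called 4 (Alx4, Foxd1, Zic1 and Zic4). Meningeal and diaphragm libraries did not overlap, with meninges higher, for 6 of the 8, beside 10.4% of all genes tested. Leaving out 1 library gave calls for Alx4 without Meninges replicate 1 (edgeR adjusted p = 0.0256) and without Skin replicate 1, 2 or 3 (0.0211, 0.0311 and 0.0345). It did so for Zic1 without Skin replicate 1, 2 or 3 (0.0236, 0.00873 and 0.0401), and for Zic4 (0.0425) and Foxd1 (0.0442) without Skin replicate 1. The median log2 fold change of the 8, with genes at 0 in diaphragm set to their bound, was 7.38, beside 0.05 over all genes.

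Against skin, 3 of the 8 were called higher in meninges, Alx4, Zic4 and Foxd1, and none lower, while 0.748% of all genes tested were called higher and 0.573% lower. The libraries did not overlap, with meninges higher, for 7 of the 8, beside 12.9% of all genes tested, and the median log2 fold change with bounds was 7.95, beside 0.08 over all genes. Without Meninges replicate 2 none of the 3 was called, with edgeR adjusted p of 0.262 for Alx4, 0.211 for Zic4 and 0.302 for Foxd1. The calls were also lost without Meninges replicate 3 (0.0605, 0.172 and 0.137 for the same genes), Skin replicate 1 (0.0529, 0.0893 and 0.0980) and Skin replicate 3 (0.0636, 0.0915 and 0.102). Without Skin replicate 2, the Alx4 call stood at an edgeR adjusted p of 0.0410, and those of Zic4 (0.0687) and Foxd1 (0.0760) were lost. Without Meninges replicate 1 the 3 were called (0.0162, 0.0433 and 0.0396). With upper-quartile scaling the Foxd1 call was lost (edgeR adjusted p = 0.0506).

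Between diaphragm and skin, none of the 8 was called by edgeR, where 0.0337% of all genes tested were higher and 0.00674% lower in diaphragm. At an unadjusted p under 0.05 there were 3 of 8, Zic1, Six2 and Foxc1, beside 11.8% of all genes tested, and DESeq2 called 1 (Six2) and limma voom 0. For 3 of the 9 genes, Alx4, Zic4 and Foxd1, all meningeal libraries had counts and all 6 others had none. This held for 0.973% of the 23018 genes in the table.

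Within meninges, most of the 9 genes were higher in replicates 2 and 3 than in replicate 1. The ratios to replicate 1 were 30.6 and 8.24 for Alx4, 18.5 and 7.02 for Foxd1, 8.41 and 7.0 for Zic4, 5.67 and 4.78 for Tbx15 and 3.52 and 4.20 for Zic1, in replicates 2 and 3. Foxc1 varied less, with ratios of 2.99 and 2.12, while Zic2 (11.5 and 172) and Tbx18 (114 and 24.5) rest on 4 and 2 counts in replicate 1. Six2 stood at 1.82 times the replicate 1 level in replicate 2 and 0.373 times in replicate 3. The corresponding ratios were 3.66 and 3.56 for the fibroblast marker sum and 5.47 and 3.78 for the bone and cartilage sum. They were lower for the mural sum, at 1.69 and 2.30, and for the sum of 23 effector genes of meningeal fibroblasts, at 1.48 and 1.90. The effector genes differed among themselves, so their sum does not stand for each of them. Mgp had 280, 1208 and 1023 CPM in Meninges replicates 1, 2 and 3, Igf2 579, 707 and 1216, and Slc4a10 223, 73.7 and 131.

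To set the members beside the fibroblast signal of the same library, their CPM was divided by the summed fibroblast CPM. Vim, which endothelial cells express as well, was left out of that sum after the data were seen, because it was lower in meninges than in the other tissues. The remaining 20 markers summed to 2531, 10432 and 10100 CPM in Meninges replicates 1, 2 and 3, against 2355, 2103 and 1921 in diaphragm and 752, 1991 and 1615 in skin. Thy1, which was kept, made up 474 of the 752 CPM in Skin replicate 1, where Col1a1 had 10.4 CPM. It made up 823 of the 1921 CPM in Diaphragm replicate 3. How far this sum measures fibroblasts in these libraries was not tested. With Vim kept, the sum of Meninges replicate 1 (2911 CPM) was below those of the diaphragm libraries (3373 to 3703 CPM). Zic1 was then at 9.52, 8.13 and 10.0 CPM per 1000 fibroblast CPM in meninges, against 0 in each diaphragm library and 0, 1.73 and 0 in skin. With Vim kept, these values were 8.28, 7.96 and 9.77 in meninges, 0 in diaphragm and 0, 0.938 and 0 in skin.

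Tbx15 was likewise even within meninges, at 5.33, 7.33 and 6.39 CPM per 1000, against 3.26, 0 and 0 in diaphragm and 0, 2.14 and 0 in skin. Zic4 was at 2.65, 5.40 and 4.64 in meninges. Alx4 (1.82, 13.5 and 3.76) and Foxd1 (1.71, 7.66 and 3.0) kept their maximum in replicate 2, and Six2 (13.4, 5.91 and 1.25) had its maximum in replicate 1. Foxc1 stood at 13.6, 9.82 and 7.19 CPM per 1000 in meninges, 17.9, 5.01 and 2.82 in diaphragm and 191, 19.4 and 27.9 in skin. With Vim kept, Foxc1 was at 11.8, 9.63 and 7.0 CPM per 1000 in meninges, 11.4, 3.10 and 1.60 in diaphragm and 71.4, 10.5 and 14.0 in skin, so the skin values depend on that choice. The part of fibroblasts, and of bone and cartilage cells, in the levels of the 9 genes was not tested.

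**Figure D2:**
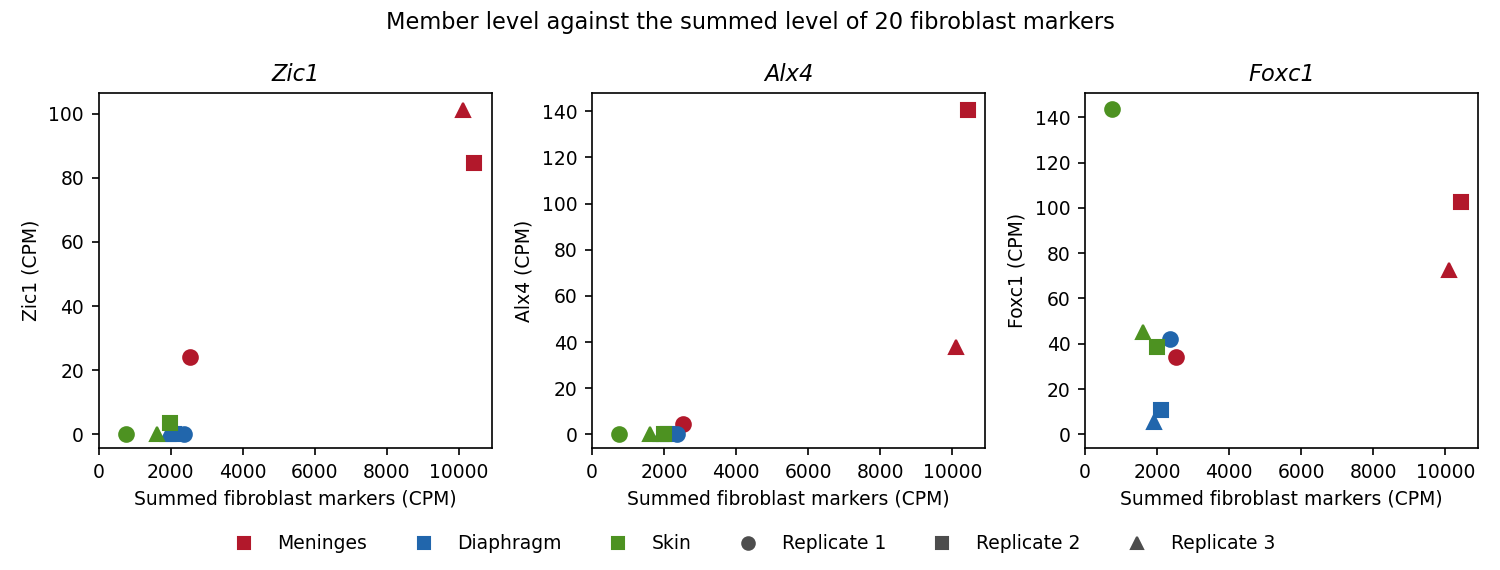
Level in CPM of Zic1, Alx4 and Foxc1 (vertical axes) against the summed CPM of 20 fibroblast markers in the same library (horizontal axes); colours are tissues and shapes replicate numbers. Zic1 is at 24.1 CPM in Meninges replicate 1, where this sum without Vim is 2531 CPM. Foxc1 is highest in Skin replicate 1, where the sum is 752 CPM, of which Thy1 makes up 474 CPM.

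Markers of other cells were also set beside the members. The mural sum over 13 genes was 535, 901 and 1229 CPM in meninges, against 357 to 569 in diaphragm and 52.0 to 307 in skin. Neural markers, 12 genes with counts in the table, summed to 55.0 to 75.7 CPM in meninges, 66.9 to 103 in diaphragm and 2.51 to 9.34 in skin. Zic genes are also made by neurons of the cerebellum, and the neuronal marker Rbfox3 was at 0.97 to 1.98 CPM in meninges. Choroid plexus and pineal markers summed to 505 to 645 CPM in meninges, against 2.12 to 13.9 in diaphragm and 0 to 41.3 in skin, with the choroid plexus gene Ttr leading in meninges. Skeletal muscle markers summed to 27.7 to 57.9 CPM in meninges, 630 to 1318 in diaphragm and 163 to 287 in skin, and leukocyte markers to at most 126 CPM in any library. The part of these cells in the levels of the 9 genes was not tested.

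The likeness of 2 genes was described by the overlap of their profiles, the sum over the 9 libraries of the smaller of both genes' shares of their own total, where 1 is an identical profile. The most alike pairs among the members were Alx4 with Foxd1 (0.93), Zic4 with Tbx15 (0.91), Alx4 with Tbx18 (0.89) and Zic1 with Zic4 and with Tbx15 (0.88 each). The 9 libraries differ in tissue and in fibroblast sum, so all genes that are high in Meninges replicates 2 and 3 overlap by this measure. Foxc1 was the least alike of the well-counted members, at 0.22 to 0.49 with the others, and Zic2, with most of its counts in Meninges replicate 3, was at 0.18 to 0.54.

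**Figure D3:**
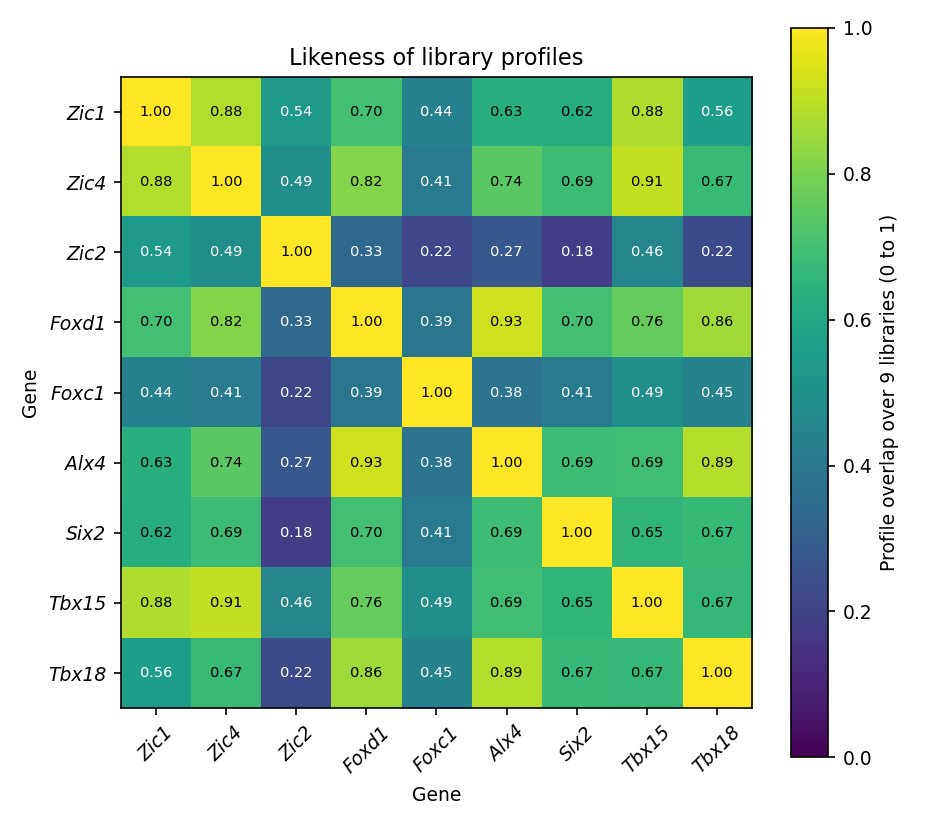
Profile overlap (0 to 1, colour and number) between each pair of the 9 genes over the 9 libraries. Alx4, Foxd1 and Tbx18 overlap at 0.86 to 0.93 and Zic1, Zic4 and Tbx15 at 0.88 to 0.91, while Foxc1 and Zic2 reach at most 0.54 with any other.

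Among the 9478 genes whose average log2 CPM reached 3, those closest to Zic1 were Cpxm1 (0.983), Shisa3 (0.963) and 1500015O10Rik (0.953). Those closest to Zic4 were Adamts2 (0.968), a procollagen peptidase, Epb41l1 (0.962) and Olfml3 (0.956). Alx4 was nearest to the collagenase Mmp13 (0.949), Tmem30b (0.944) and Foxd1 (0.929), and Foxd1 to Mmp13 (0.968), Matn4 (0.966) and the anion exchanger Slc26a4 (0.966). Tbx15 was nearest to Islr (0.946), Mgp (0.945) and Rab30 (0.942), Six2 to Dact1 (0.901), Gm42992 (0.889) and Hmces (0.889), and Tbx18 to Gng4 (0.991), Ubac1 (0.921) and Lgi2 (0.913). Zic2 was nearest to P4ha3 (0.930), Krt222 (0.906) and Slc16a7 (0.848), and Foxc1 to Xpo5 (0.881), Dhx8 (0.874) and Dis3l (0.872).

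The relatives of the members in the same families were measured from a list of 22 paralogs, of which 17 were in the table and 11 were tested. None was called between meninges and diaphragm, with 2 of 11 at an unadjusted p under 0.05, beside 10.1% of all genes tested. Between meninges and skin 7 of 11 were at an unadjusted p under 0.05, beside 13.8% of all genes tested, and 1 was called, Tbx3, which had 0.438, 9.59 and 18.3 CPM in meninges and no count in skin (edgeR adjusted p = 0.0406), though diaphragm had 56.1, 34.8 and 18.1 CPM. Tbx1, known from head muscle and lymphatic development, was at 85.9, 49.0 and 59.7 CPM in meninges, 47.0, 12.8 and 22.0 in diaphragm and 44.8, 37.4 and 20.4 in skin, and did not pass the edgeR test over diaphragm or skin (adjusted p = 0.658 and 0.694). Zic5, picked after its values were seen as the neighbour of Zic2, had 4.63, 17.8 and 8.56 CPM in meninges and no count elsewhere (edgeR adjusted p = 0.294 and 0.175). Foxc2, the lymphatic valve factor related to Foxc1 and also picked afterwards, was at 0.720, 10.1 and 24.2 CPM in meninges, 47.9, 5.83 and 76.0 in diaphragm and 71.5, 51.8 and 97.0 in skin, without a call (0.654 and 0.302).

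Of 33 other factors of cranial mesenchyme, 30 were in the table and 24 were tested. Against skin, Prrx1 and Zfhx4 were called higher in meninges and none lower; against diaphragm none was called, with 10 of 24 at an unadjusted p under 0.05, beside 10.1% of all genes tested. Against skin 7 of 24 were at an unadjusted p under 0.05, beside 13.8% of all genes tested. Prrx1, a homeobox gene of limb and craniofacial mesenchyme, had 92.9, 418 and 235 CPM in meninges, 22.7, 36.3 and 3.69 in diaphragm and 10.8, 4.83 and 13.2 in skin (log2 fold change over skin 4.70, standard error 0.87, edgeR adjusted p = 0.0168). Zfhx4 had 130, 769 and 516 CPM in meninges, 108, 161 and 58.0 in diaphragm and 15.6, 40.4 and 2.42 in skin (4.60, standard error 0.91, edgeR adjusted p = 0.0244). The median log2 fold change of the list, with bounds, was 2.65 over diaphragm and 4.28 over skin, beside 0.05 and 0.08 over all genes tested. Twist1, Msx2, Lmx1b, Eya1 and Eya2 are plotted by library beside the paralogs as examples, chosen after their values were seen.

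**Figure D4:**
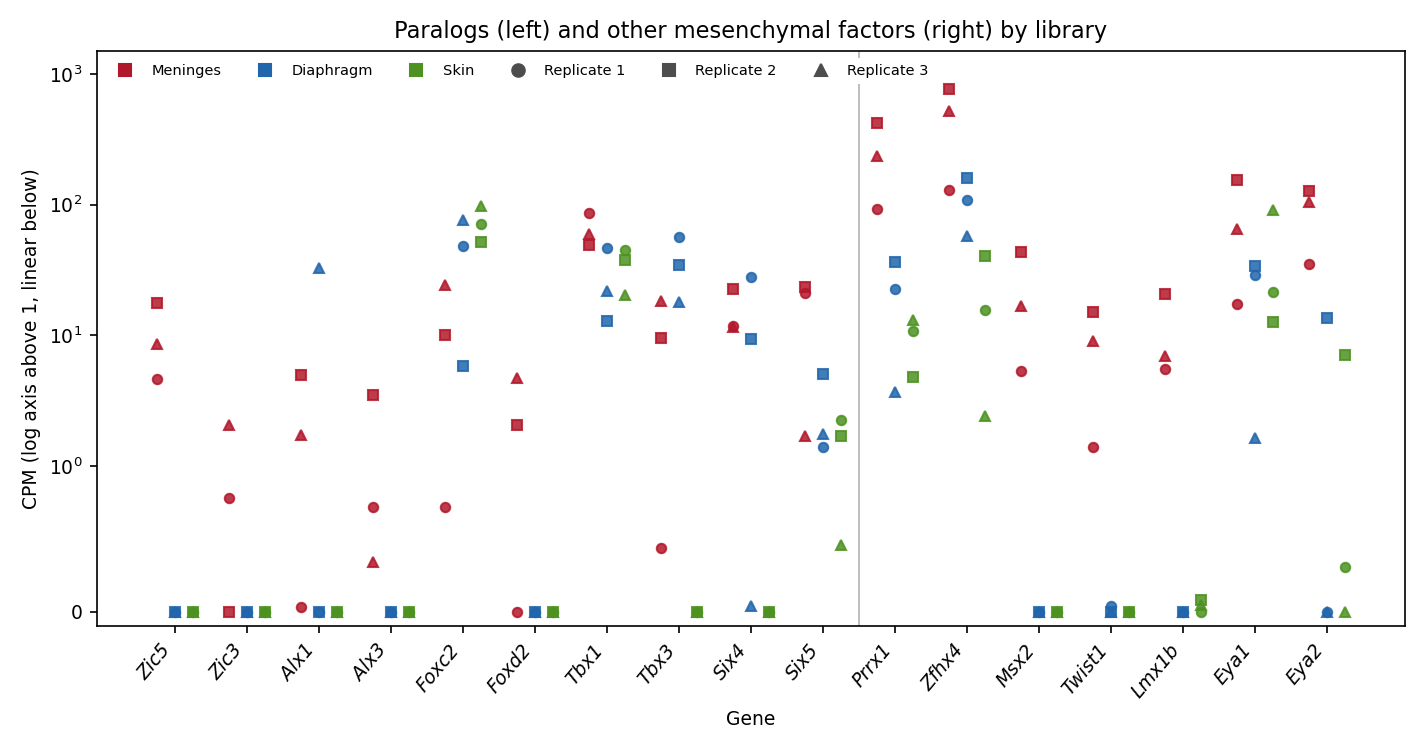
Level in CPM (vertical axis, logarithmic above 1 and linear below) of 10 paralogs of the 9 genes and of 7 other mesenchymal factors in each library; colours are tissues and shapes replicate numbers. Zic5 has counts in meningeal libraries alone, while Foxc2 and Tbx1 have counts in all 9.

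Of 24 effector genes of meningeal fibroblasts, 23 were in the table and 19 were tested, and 2 were called higher in meninges in each comparison with another tissue, beside 0.169% of all genes tested over diaphragm and 0.748% over skin. Slc47a1, an organic cation exporter without a count in either other tissue, was called against diaphragm and against skin (edgeR adjusted p = 0.0216 and 0.0110). Slc4a10, a bicarbonate transporter, was called against diaphragm (0.0186) and the growth factor Igf2 against skin (0.00186). Of the bone and cartilage markers, 5 were tested and 2 called in each comparison, beside the same shares of all genes: Runx2 was called in both comparisons (edgeR adjusted p = 0.00798 over diaphragm and 0.0280 over skin), as was Alpl.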

How the data were processed

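Per the labels' protocols, PicoPure extraction was followed by cDNA amplification with an Ovation kit. The deposited values are counts of reads per gene, made by the authors with FastQC, STAR and HTSeq on build mm9, per the submitters' processing notes; tool versions, annotation and strand setting were not given in the sources used here. The test was edgeR 4.0.16 under R 4.3.3 (filterByExpr, TMM, quasi-likelihood, 1 mean per tissue over 9 libraries), which left 14831 of 23018 genes; calls needed a Benjamini-Hochberg adjusted p under 0.05. The biological coefficient of variation was 1.243. CPM use TMM effective sizes. A tissue without counts was set to a floor of 3 counts over its 3 libraries; floors and intervals cover counting error only. DESeq2 1.42.0, limma 3.58.1 voom and other settings were alternatives. Total counts per library ran from 26075366 to 34592850. Promoter sequences and exon lengths come from build GRCm38, which is not the build of the counts. The 9 members and all lists were chosen with earlier results of these data known. All 9 members are named; from each other list up to 4 called genes, or the 2 highest in meninges where fewer than 2 were called; and the 3 genes of closest profile. Not all genes the rule takes are printed, and some are not reported here.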

Additional observations from a re-analysis of the deposited data

How the results depend on the processing

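Against diaphragm, where edgeR called 0 of the 8 tested genes, the DESeq2 Wald test, limma voom, the fit without a filter and the fit of only the 2 tissues each called 4 (Alx4, Foxd1, Zic1 and Zic4). The filter of 50 counts in 3 libraries and the robust fit called 1 (Alx4), and fits that left out 1 library called 0 to 4. Against skin, where 3 were called, limma voom and the fit without a filter called 5, adding Six2 and Zic1, Meninges replicate 1 as the only meningeal library, assumed to vary like the other groups, called 0, and fits that left out 1 library called 0 to 4. Between diaphragm and skin, DESeq2 called 1 (Six2) and the fit without a filter 1 (Zic1), against 0. With the replicate number as a block, 2 were called against diaphragm (Alx4 and Zic1) and 1 against skin (Alx4). Deviations from the tissue mean had correlations of -0.0205 to 0.0512 between libraries that share a number. Libraries of unlike number were not compared in this way, so whether the numbers pair libraries cannot be decided from these values. Directions turned in cases without a call: Tbx18 over diaphragm with Meninges replicate 1 alone (edgeR adjusted p = 1), Foxc1 over skin with voom (0.980), with the block (0.959) and among the fits without 1 library (0.819 to 0.996), and Tbx15 in diaphragm over skin with voom (0.940) and without 1 library (0.372 to 1); the cause was not tested. Over all genes, calls numbered 51, 196 and 6 in meninges against diaphragm, meninges against skin and diaphragm against skin with edgeR, 625, 1087 and 779 with DESeq2, 298, 610 and 305 without a filter and 200, 414 and 1 with voom. They numbered 108, 158 and 1 with only 2 tissues, 70, 231 and 16 with the block, 72, 262 and 36 in the robust fit, 58, 217 and 13 at 50 counts and 11, 58 and 82 with Meninges replicate 1 alone. Other scalings moved the median of all genes by at most 0.0205 on the log2 scale, and upper-quartile factors ended the Foxd1 call against skin (edgeR adjusted p = 0.0506), leaving 2 genes called. Zic2 and Tbx18 had 4 and 2 counts in Meninges replicate 1, so their levels there carry a large counting error.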
